A study of Mus musculus with 9 samples.

Results

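The C/EBP transcription factors described here are Cebpa, Cebpb, Cebpd, Cebpg and Ddit3, found by their symbols in the deposited expression table. They are 5 of its 24346 genes, and all 5 passed the filter on low values, a mean of 1 FPKM. RNA sequencing covered 9 libraries of 6 mouse mammary tumour cell lines, in which C/EBP mRNA can be compared between cells with and without Janus kinase 1 (JAK1). All lines are of FVB/N strain and MMTV-neu origin, a transgene in which the mouse mammary tumour virus promoter drives the neu (Erbb2) oncogene in mammary epithelium, so knockout and wild-type libraries alike carry it. The Jak1 knockout group holds 4 libraries, the Cre libraries of lines 45555, 47298 and 45566B and the library of line 46295. The Jak1 wild-type group holds 5, the Wt libraries of 45555, 47298 and 45566B and the libraries of lines 33373 and 33377. Both states of 45555, 47298 and 45566B were treated with puromycin, a selection drug, and the medium of all lines, which grew attached, held hydrocortisone (a glucocorticoid), insulin, EGF and serum. Each line and state has 1 library, separate cultures are not named in the labels, and the sources used here do not say whether a line is a single clone. A p-value below therefore measures only the spread between these libraries, which may be technical.

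C/EBP proteins are basic leucine zipper factors, which pair through their zippers and bind DNA as dimers. C/EBP beta and delta are induced by inflammatory cytokines and switch on acute-phase genes. In mammary epithelium C/EBP delta is known as a target of STAT3, which receptors of the gp130 family activate through JAK1, and C/EBP beta is needed for the alveoli of the gland to form. C/EBP alpha drives differentiation of fat cells and myeloid cells, C/EBP gamma lacks an activation domain of its own and works through its partners, and the product of Ddit3, called CHOP, is made under endoplasmic reticulum stress and amino acid shortage.

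The values are FPKM, fragments set per length of the transcript and per library size, so genes can be compared with each other per length. The number of fragments behind them is unknown. Libraries summed to between 567403 and 721751 FPKM and held 10821 to 11622 genes at 1 FPKM or more, and the shallowest, 46295, had 0.418 of the depth of 45566B wild type, the deepest. The columns of 33373 and 33377 lack a name suffix that the other 7 carry and may be on another scale, so the fold changes over all 9 libraries are also given without them. Jak1 itself stood at 74.4 FPKM in knockout and 86.7 FPKM in wild type of 45555, at 27.5 and 63.1 FPKM in 47298, and at 14.2 and 16.1 FPKM in 45566B. It stood at 23.0 FPKM in 46295 knockout, above the wild-type libraries of 45566B and 33373 (19.4 FPKM), and at 54.6 FPKM in 33377. A value over the whole gene cannot show a deleted stretch. Not every line of this mammary tumour panel showed epithelial markers. The summed level of 12 such markers was 12.7 FPKM in knockout and 10.6 FPKM in wild type of 45555, with Epcam, the adhesion molecule of epithelia, under 1 FPKM in both. It was 494 FPKM in knockout and 120 FPKM in wild type of 47298 and 168 FPKM in 33377, while 45566B, 46295 and 33373 stood between 3940 and 4803 FPKM. In 47298, 7 of the 12 markers were under 1 FPKM in knockout and 6 in wild type.

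In build mm10, annotated by GENCODE vM21, Cebpa is at chr7:35119293-35121928 and Cebpg is 62720 bases away on the other strand at chr7:35046422-35056573. Cebpb is at chr2:167688915-167690418, Cebpd at chr16:15887286-15891031 and Ddit3 at chr10:127290774-127296288, all protein coding. Exons of the member overlap exons of an antisense gene over 15% of the exonic bases of Cebpd (Spidr), 20.7% of Cebpb (Tmem189) and 3.97% of Ddit3 (Mars). The sources used here do not state strandedness, so reads of these stretches cannot be told apart. Spidr stood at 11.5 FPKM in knockout and 18.6 FPKM in wild type of 45555, and at 6.91 and 30.4 FPKM in 47298. It was nearly level in 45566B, at 11.3 and 11.7 FPKM, so it was lower in the same pairs as Cebpd below. Tmem189 was higher in knockout of 47298, at 51.5 FPKM against 17.2 FPKM in wild type. Tmem189 and Mars were both higher in knockout of 45555 and 47298 and lower in 45566B. The part of these genes in the values of the members was not tested. The 250 bases before the RefSeq start of 4 of the members, from build GRCm38.p6, are shown to set side by side the sequence from which each of these mRNAs is started. Each reads 5′ to 3′ on the strand of its gene. Capitals mark CCAAT and TGACG on either strand, the core letters bound by NF-Y and by CREB and ATF factors.
Cebpa (chr7:35119043-35119292, plus strand): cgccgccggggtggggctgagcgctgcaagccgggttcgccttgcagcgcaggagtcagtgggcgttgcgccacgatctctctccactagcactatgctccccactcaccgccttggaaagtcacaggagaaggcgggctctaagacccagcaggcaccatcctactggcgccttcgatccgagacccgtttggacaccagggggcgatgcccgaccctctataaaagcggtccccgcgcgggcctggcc
Cebpb (chr2:167688665-167688914, plus strand): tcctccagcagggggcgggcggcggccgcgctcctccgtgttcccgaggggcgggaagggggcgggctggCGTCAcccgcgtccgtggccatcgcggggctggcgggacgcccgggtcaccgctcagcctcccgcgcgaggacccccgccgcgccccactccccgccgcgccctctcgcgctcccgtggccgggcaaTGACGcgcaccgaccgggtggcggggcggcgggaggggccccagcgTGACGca
Cebpg (chr7:35056567-35056816, minus strand): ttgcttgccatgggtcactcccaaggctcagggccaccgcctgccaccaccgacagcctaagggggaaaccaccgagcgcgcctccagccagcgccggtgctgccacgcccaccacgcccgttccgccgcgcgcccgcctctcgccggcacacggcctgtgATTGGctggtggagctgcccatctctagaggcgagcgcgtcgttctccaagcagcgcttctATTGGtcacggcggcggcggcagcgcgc
Ddit3 (chr10:127290543-127290792, plus strand): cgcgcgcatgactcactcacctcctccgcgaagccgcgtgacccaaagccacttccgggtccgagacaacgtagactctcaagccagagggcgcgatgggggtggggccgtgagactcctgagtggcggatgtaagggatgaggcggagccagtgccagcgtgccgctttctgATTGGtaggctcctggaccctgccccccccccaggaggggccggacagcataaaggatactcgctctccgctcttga

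TGACG occurred 3 times in the Cebpb window, on the other strand 180 bases before the start and on the same strand 53 and 7 bases before it, and 17.9% of 27025 promoter windows of this length held it. CCAAT occurred on the other strand in the Cebpg window, 89 and 28 bases before the start, and in the Ddit3 window, 77 bases before it, and 34.5% of all windows held it. The letters TTCNNNGAA, to which STAT factors bind, and TTGCNNAA, to which C/EBP dimers bind, were searched on both strands too. Neither is in these 4 windows, and 7.18% and 9.55% of all windows held them. Cebpd had no window, so the search says nothing about it. The 4 windows held from 64.8% (Ddit3) to 81.6% (Cebpb) G and C, beside a median of 52.0% over promoters. The shares over all windows are therefore not a like background. The Cebpa window held none of the searched letters.

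Cebpd, the cytokine-induced member, had the widest range of the 5. It stood at 3.95 FPKM in 45555 knockout, 3.34 FPKM in 47298 knockout, 12.1 FPKM in 45566B knockout and 32.5 FPKM in 46295 knockout. In wild type it stood at 39.2 FPKM in 45555, 58.1 FPKM in 47298, 8.90 FPKM in 45566B, 98.1 FPKM in 33373 and 84.6 FPKM in 33377. The knockout libraries of 45555 and 47298 are the lowest, all wild-type libraries but that of 45566B are above every knockout library, and the 45566B wild-type library is below its own knockout, so the groups overlap. Cebpd was 9.91 times higher in wild type than in knockout of 45555 and 17.4 times higher in 47298, but in 45566B the knockout library was 1.36 times its wild type. On the log2(FPKM + 1) scale, which understates differences of low genes, the knockout minus wild-type differences were -3.02, -3.77 and 0.40.

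Few genes had a lower difference than Cebpd within those lines, 67 of 12063 in 45555 and 167 in 47298. In 45566B the order was the other way, and 94.7% of the genes had a lower difference. No member reached -1 or 1 in 45566B, where 2.17% of all genes were at -1 or less and 0.854% at 1 or more. A difference of -1 or less in both 45555 and 47298 was found for Cebpd alone among the members and for 2.5% of all genes, and 1 or more in both for no member and 0.473% of genes. Cebpb, Cebpd and Ddit3 were below 0 in both lines, as were 29.6% of all genes. The pattern of Cebpd, below 0 in these lines and above 0 in 45566B, was shared by 15.4% of all genes. With 1 library per line and state, the lines' differences could not be tested against each other.

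Over the 3 pairs, with the line as a block, Cebpd had a log2 fold change of -2.13 (SE 0.90, limma adjusted p = 0.762). It was -3.39 without 45566B, -1.31 without 47298 and -1.68 without 45555, with an adjusted p of 0.721, 0.873 and 0.971. Over all 9 libraries Cebpd averaged 13.0 ± 13.6 FPKM in knockout (SD, n = 4) and 57.8 ± 35.6 FPKM in wild type (SD, n = 5), a log2 fold change of -2.21 (SE 0.81, limma, unadjusted p = 0.0233, adjusted p = 1.000). By unadjusted p it ranked 72 of 12198 genes. Without 33373 and 33377 the value was -1.54, and in the libraries of 45566B, 46295, 33373 and 33377 alone -1.07, each with an adjusted p over 0.99.

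No gene passed an adjusted p of 0.05 in either comparison, so the share of all genes called lower was 0% and of those called higher 0%, and none of the 5 members was called. Over the 3 pairs 406 of 12063 genes had an unadjusted p under 0.05, 1.86% of all genes lower and 1.51% higher in knockout, with a smallest adjusted p of 0.762 and no member among them. Over all 9 libraries 144 of 12198 did so, 0.959% lower and 0.221% higher, with a smallest adjusted p of 0.851, and Cebpd was the only member among them. Every knockout library lay below every wild-type library for 0.303% of all genes and above it for 0.139%, in both cases for none of the 5 members.

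**Figure D1:**
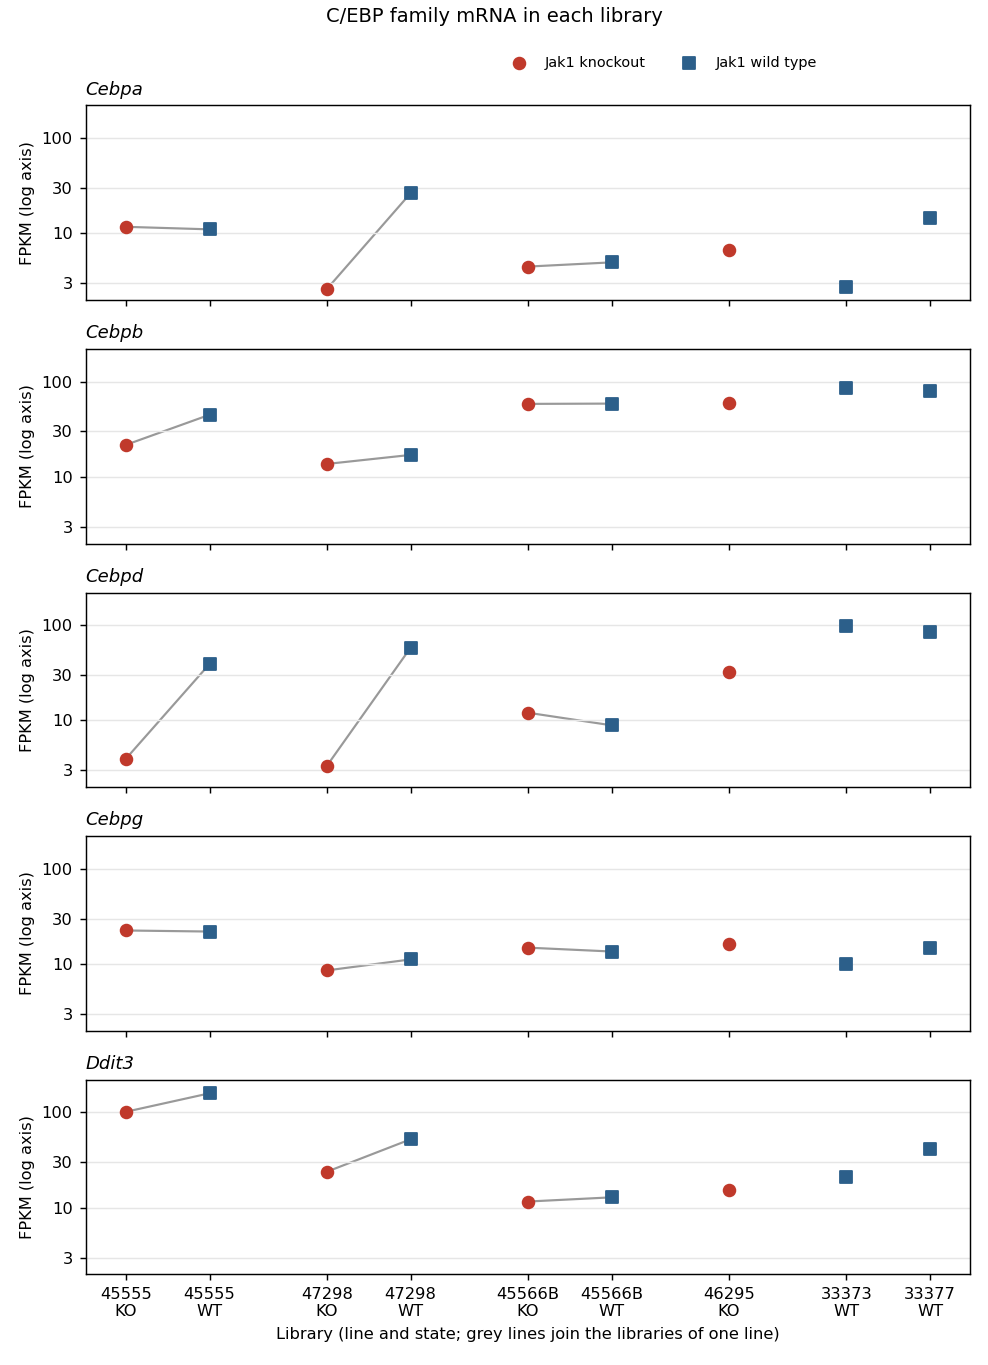
FPKM of each C/EBP gene (vertical log axis) in the 9 libraries (horizontal axis), with Jak1 knockout as circles and wild type as squares, and grey lines joining the libraries of the same line. Cebpd stood at 3.95 FPKM in knockout and 39.2 FPKM in wild type of 45555 and at 3.34 and 58.1 FPKM in 47298, while the lines for Cebpg are nearly level.

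Cebpb, the member that shares most inducers with Cebpd, was lower in knockout by a smaller margin. It stood at 21.7 FPKM in 45555 knockout, 13.7 FPKM in 47298 knockout, 58.4 FPKM in 45566B knockout and 59.3 FPKM in 46295 knockout. In wild type it stood at 44.9 FPKM in 45555, 17.0 FPKM in 47298, 58.8 FPKM in 45566B, 85.1 FPKM in 33373 and 78.8 FPKM in 33377. Both libraries of 47298 are the lowest. The SD of the log2 level was 0.94 between the means of the 3 lines and 0.52 among their knockout minus wild-type differences. For Cebpd these SDs were 0.25 and 2.22. The second SD measures how the difference varied between lines, not its size.

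The within-line differences of Cebpb were -1.02 in 45555, -0.30 in 47298 and -0.01 in 45566B. When libraries were rescaled to equal sums without short noncoding RNA genes, those in 47298 and 45566B became 0.07 and 0.09, so Cebpb was lower in all 3 lines only on the deposited scale. On that scale Cebpb and Ddit3 were below 0 in all 3 lines, as were 13.3% of all genes, and no member was above 0 in all 3, as were 14.3%. The rescaling moved the median difference of all genes up by 0.10 in 45555, 0.36 in 47298 and 0.09 in 45566B, which applies to every small difference below. A difference of -1 or less in 45555, where Cebpb and Cebpd had it, was found for 6.68% of all genes. Over the 3 pairs Cebpb had a log2 fold change of -0.44 (SE 0.25, limma adjusted p = 0.762). Over all 9 libraries it was -0.62 (SE 0.58, adjusted p = 1.000), with averages of 38.3 ± 24.0 FPKM in knockout (SD, n = 4) and 56.9 ± 27.5 FPKM in wild type (SD, n = 5). It was -0.15 in the pairs without 45555, -0.66 without 45566B and -0.25 when rescaled without short noncoding RNA genes. Over all libraries it was -0.15 without 33373 and 33377, -0.31 in the libraries of 45566B, 46295, 33373 and 33377 alone, -0.23 without the knockout library and -0.996 without the wild-type library of 47298.

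Cebpa, the factor of fat and myeloid differentiation, differed in a single line. It stood at 11.7 FPKM in 45555 knockout, 2.60 FPKM in 47298 knockout, 4.48 FPKM in 45566B knockout and 6.67 FPKM in 46295 knockout. In wild type it stood at 11.0 FPKM in 45555, 26.4 FPKM in 47298, 4.96 FPKM in 45566B, 2.71 FPKM in 33373 and 14.4 FPKM in 33377. The highest and the lowest of the 9 values are the wild-type and the knockout library of 47298, a ratio of 10.1, and the groups overlap over most of their range. The within-line differences were 0.08, -2.93 and -0.12, and 307 of 12063 genes had a lower difference in 47298, where 11% of all genes were at -1 or less. Its log2 fold change over the 3 pairs was -0.99 (SE 0.69, limma adjusted p = 0.762), -0.02 without 47298 and -1.52 without 45555. In all 9 libraries it was -0.63 (SE 0.61, adjusted p = 1.000), and -0.27 without the wild-type library and -0.33 without the knockout library of 47298. It was -0.99 without 33373, -0.92 without 33373 and 33377, and -0.11 in the libraries of 45566B, 46295, 33373 and 33377 alone.

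Cebpg, the partner of other C/EBP proteins and of ATF4, varied least. It stood at 22.5 FPKM in 45555 knockout, 8.58 FPKM in 47298 knockout, 14.9 FPKM in 45566B knockout and 16.3 FPKM in 46295 knockout. In wild type it stood at 21.9 FPKM in 45555, 11.2 FPKM in 47298, 13.5 FPKM in 45566B, 10.1 FPKM in 33373 and 14.7 FPKM in 33377. The libraries follow the line, with both of 45555 highest, and the highest value was 2.62 times the lowest, against 29.3 times for Cebpd. Its log2 fold change was -0.06 over the 3 pairs (SE 0.18, limma adjusted p = 0.925) and 0.09 over all 9 libraries (SE 0.30, adjusted p = 1.000), and -0.02 without 33373 and 33377. Its sign turned under several settings, such as 0.08 in the pairs without 47298, so no direction is given.

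Ddit3, the stress-induced member whose product blocks C/EBP dimers from their usual sites, was lower in the knockout library of all 3 lines. It stood at 101 FPKM in 45555 knockout, 23.8 FPKM in 47298 knockout, 11.6 FPKM in 45566B knockout and 15.2 FPKM in 46295 knockout. In wild type it stood at 158 FPKM in 45555, 52.2 FPKM in 47298, 12.8 FPKM in 45566B, 20.7 FPKM in 33373 and 41.1 FPKM in 33377. Both libraries of 45555 stand above all others, and both of 47298 stand above both of 45566B, so within the pairs the order follows the line first. The SD of the log2 level was 1.64 between line means and 0.48 among the line differences. Those differences were -0.64, -1.10 and -0.14, and they stayed below 0 under both rescalings. The log2 fold change was -0.63 over the 3 pairs (SE 0.24, limma, unadjusted p = 0.0568, adjusted p = 0.762) and -0.59 over all 9 libraries (SE 0.81, adjusted p = 1.000). Over all libraries it was -0.09 without the wild-type library of 45555 and -1.23 without its knockout library, -0.98 without the wild-type library and -0.23 without the knockout library of 45566B, -0.35 without 46295, and -0.87 without 33373 and 33377. In the pairs it was -0.39 without 47298. GENCODE holds 2 entries named Ddit3, which share a single row here.

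**Figure D2:**
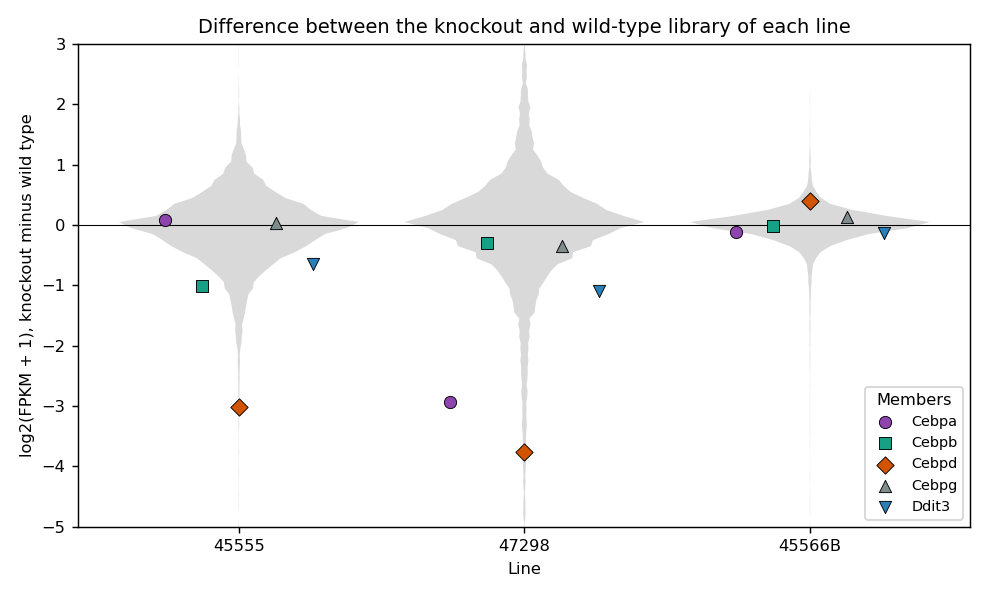
Knockout minus wild-type difference of log2(FPKM + 1) for each member (vertical axis) within lines 45555, 47298 and 45566B (horizontal axis), beside the spread of all genes tested in that line. Cebpd is at -3.02, -3.77 and 0.40, Cebpa is far below 0 only in 47298, and all 5 members lie between -0.14 and 0.40 in 45566B.

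Both the sum and the make-up of C/EBP mRNA differed between libraries. The 5 genes summed to 161 FPKM in knockout and 275 FPKM in wild type of 45555, 52.0 and 165 FPKM in 47298, and 101 and 99.0 FPKM in 45566B. The sum was 130 FPKM in 46295, 217 FPKM in 33373 and 234 FPKM in 33377. Ddit3 was the largest share in both libraries of 45555 and in 47298 knockout, with 62.9% in knockout and 57.5% in wild type of 45555. Cebpb was the largest in 46295 and in both libraries of 45566B, and Cebpd in 47298 wild type, 33373 and 33377.

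The ratio of Cebpb to Cebpd, FPKM over FPKM, was 5.48 in knockout and 1.15 in wild type of 45555, and 4.09 and 0.293 in 47298. It was 4.84 in knockout and 6.61 in wild type of 45566B, 1.83 in 46295, 0.868 in 33373 and 0.931 in 33377. Cebpd thus exceeded Cebpb in 3 of 5 wild-type libraries and in none of the 4 knockout libraries. Cebpe, the myeloid C/EBP, was listed at 0 in all 9 libraries. Cebpz, which carries the name but is not a leucine zipper factor, stood at 27.2 FPKM in knockout and 18.0 FPKM in wild type of 45555, 17.7 and 18.7 FPKM in 47298, and 19.5 and 18.5 FPKM in 45566B.

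**Figure D3:**
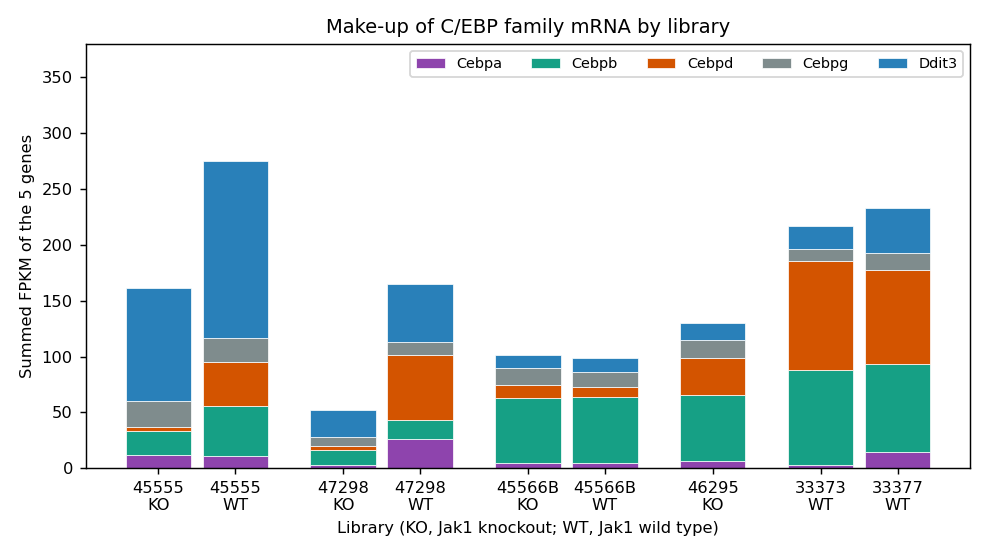
Stacked FPKM of the 5 C/EBP genes (vertical axis) in each library (horizontal axis), with the knockout library left of the wild type in each pair. The orange Cebpd band is thin in the knockout libraries of 45555 and 47298 and in both libraries of 45566B, and Ddit3 makes up 62.9% of the sum in 45555 knockout and 57.5% in 45555 wild type.

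Patterns across libraries differed between members. Over the 9 libraries, which share lines and so are not independent, the highest Pearson r between members on the log2 scale was 0.63 (Cebpa and Ddit3) and the lowest -0.36 (Cebpb and Ddit3), with 0.55 for Cebpb and Cebpd. Among 12193 other genes the pattern most like that of Cebpd was that of Mark1, a microtubule affinity-regulating kinase (r = 0.93), before Nat14 (0.92) and Nox4, an NADPH oxidase (0.91). Mark1 stood at 2.93 FPKM in knockout and 9.14 FPKM in wild type of 45555 and at 0.597 and 14.5 FPKM in 47298. For Cebpb the closest were Irf2bpl (0.98), Camkk2, a calcium-dependent kinase (0.96), and Faap100 (0.94), and for Cebpa Il17ra, the interleukin-17 receptor chain (0.94), Pot1a (0.93) and Helb (0.93). For Ddit3 they were Plod1, a collagen lysyl hydroxylase (0.98), Kdelr3, a retrieval receptor of the endoplasmic reticulum (0.98), and Akna (0.98), and for Cebpg Fam96b (0.97), Hnrnpa1, an RNA-binding protein (0.96), and Tbp, the TATA-binding protein (0.96).

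Upstream of Cebpd and Cebpb, none of the listed genes of gp130 and STAT3 signalling passed. Of 17 listed genes 14 were tested over the pairs. Of these 9 were lower and 5 higher in knockout, with a median log2 fold change of -0.48 beside -0.01 over all genes (-0.28 beside 0.16 when rescaled without short noncoding RNA genes), and 1, Il11ra1, had an unadjusted p under 0.05. The medians within lines were -0.55 in 45555, -0.82 in 47298 and -0.05 in 45566B. In 47298 the list was split, with 5 genes at -1 or less and 3 at 1 or more, beside 11% and 8.49% of all genes. The 3 were Il6ra (37.0 FPKM in knockout and 14.1 FPKM in wild type), Lif and Ctf1. In 45555, 4 genes were at -1 or less and 0 at 1 or more, beside 6.68% and 3.2% of all genes. Stat3, the factor that induces Cebpd, stood at 19.0 FPKM in knockout and 66.5 FPKM in wild type of 45555, 45.96 and 92.3 FPKM in 47298, and 45.7 and 46.4 FPKM in 45566B. It stood at 59.7 FPKM in 46295 knockout, 110 FPKM in 33373 and 65.0 FPKM in 33377. It was lower in knockout of the same pairs as Cebpd and nearly level in 45566B.

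Socs3, the feedback inhibitor that STAT3 induces, stood at 4.55 FPKM in knockout and 10.4 FPKM in wild type of 45555, 2.37 and 24.1 FPKM in 47298, and 0.496 and 0.280 FPKM in 45566B. It was thus low in both 45566B libraries. Osmr, the oncostatin M receptor, was low there too, with 3.72 FPKM in knockout and 2.36 FPKM in wild type. So was Lifr, the receptor of leukaemia inhibitory factor, with 0.261 and 0.346 FPKM. Lifr was also low in 46295 knockout (0.241 FPKM) and in 33373 (0.814 FPKM), where Cebpd was highest. In 33373 Socs3 stood at 14.3 FPKM and Osmr at 41.8 FPKM. Lif, the ligand of Lifr, stood at 49.2 FPKM in knockout and 68.2 FPKM in wild type of 45566B. It was at 8.24 FPKM or below in the libraries of 45555 and 47298. Whether these levels bear on Cebpd was not tested. In 45555 Osmr stood at 12.1 FPKM in knockout and 59.1 FPKM in wild type. Osm was listed at 0 in all libraries.

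Downstream, 14 of 18 tested acute-phase and cytokine genes (30 listed) were lower in knockout over the pairs and 4 higher, with a median of -0.37 that became -0.17, with 12 lower and 6 higher, without short noncoding RNA genes in the scaling. None passed, and 2 had an unadjusted p under 0.05. Il1rn, the secreted interleukin-1 antagonist, had within-line differences of -4.01 in 45555, -5.41 in 47298 and -0.40 in 45566B, where its wild type stood at 21.5 FPKM (log2 fold change -3.27, SE 1.05, limma, unadjusted p = 0.0336, adjusted p = 0.762). Serpina3n, an acute-phase protease inhibitor, had a log2 fold change of -3.03 (SE 0.98, limma adjusted p = 0.762) and within-line differences of -4.12, -4.71 and -0.27. Like Cebpd, these genes differed far less in 45566B than in the other pairs. Csf3, the granulocyte growth factor, was under 1 FPKM in all 4 libraries of 45555 and 47298 and stood at 381 FPKM in knockout and 727 FPKM in wild type of 45566B.

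The targets did not share a direction in 47298. There, where Cebpd was lowest in knockout, 5 acute-phase genes had a difference of -1 or less and 5 of 1 or more, beside 11% and 8.49% of all genes. Lbp, the lipopolysaccharide-binding protein, stood at 343 FPKM in knockout and 46.5 FPKM in wild type of 47298, and at 0.271 and 9.91 FPKM in 45555. Cp, ceruloplasmin, stood at 1075 FPKM in knockout and 147 FPKM in wild type of 47298, and at 13.7 and 87.2 FPKM in 45555. In 45555 itself 9 of the 18 had a difference of -1 or less and none of 1 or more, beside 6.68% and 3.2% of all genes.

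**Figure D4:**
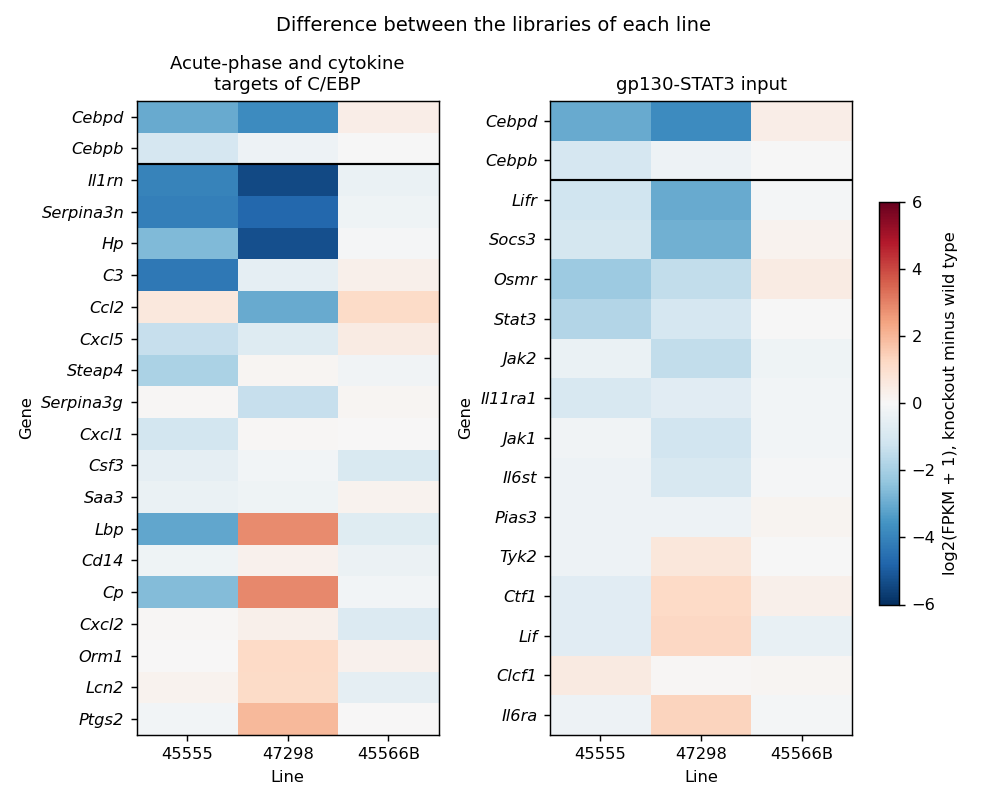
Knockout minus wild-type difference of log2(FPKM + 1) by colour (blue lower and red higher in knockout) for Cebpd and Cebpb, above the line, and the tested acute-phase genes (left) and gp130 and STAT3 genes (right), with 1 column per line. Il1rn and Serpina3n are blue with Cebpd in 45555 and 47298, and Lbp and Cp are red in 47298 only.

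Because the medium held hydrocortisone and glucocorticoids induce Cebpd and Cebpb, 17 glucocorticoid-induced genes were set beside them. All were tested over the pairs, 15 were lower in knockout and 2 higher, with a median of -0.54 (-0.34 without short noncoding RNA genes in the scaling), and none passed. Of the 15, Cdkn1c reached the filter only through 47298 wild type (6.12 FPKM), which fixed its direction over the pairs. The within-line medians of the list were -0.53, -0.92 and -0.03, lower in the same pairs as Cebpd. Mt1, a metallothionein, stood at 529 FPKM in knockout and 1950 FPKM in wild type of 45555, 463 and 1414 FPKM in 47298, and 347 and 499 FPKM in 45566B (log2 fold change -1.34, SE 0.35, limma, unadjusted p = 0.0174, adjusted p = 0.762). Fkbp5, a classic target of the glucocorticoid receptor, stood at 136 FPKM in both libraries of 45555, 94.1 FPKM in knockout and 185 FPKM in wild type of 47298, and 91.9 and 116 FPKM in 45566B. The list's part in the result for Cebpd was not tested.

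Partners and regulators of C/EBP proteins showed no common direction. Of 17 partners and related zipper factors 14 were tested, 8 lower and 6 higher with a median of -0.04, and of 14 regulators all were tested, 8 lower and 6 higher with a median of -0.02. Both medians turned positive (0.11 and 0.17) when short noncoding RNA genes were left out of the scaling, which moved the median of all genes to 0.16. Fos, an immediate-early partner in other zipper dimers, stood at 1.66 FPKM in knockout and 36.2 FPKM in wild type of 45555, 1.88 and 16.8 FPKM in 47298, and 9.83 and 12.5 FPKM in 45566B (log2 fold change -2.25, SE 0.73, limma, unadjusted p = 0.0351, adjusted p = 0.762). Trib1 and Trib2, pseudokinases that send C/EBP alpha to degradation, had log2 fold changes of -0.54 (SE 0.16) and -0.58 (SE 0.19), both below 0 in all 3 lines and both with an adjusted p of 0.762. Celf1, another listed regulator, went the other way, with a log2 fold change of 0.71 (SE 0.30, limma adjusted p = 0.762). Its within-line differences were 1.27 in 45555, 0.88 in 47298 and -0.03 in 45566B.

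Genes that respond to stress with Ddit3 followed the line. Of 31 targets of the integrated stress response, all tested, 17 were lower in knockout and 14 higher, with a median of -0.01 that became 0.11 without short noncoding RNA genes in the scaling, and none passed. Their mean level on the log2(FPKM + 1) scale was 6.03 in knockout and 6.23 in wild type of 45555, 4.23 and 4.11 in 47298, and 3.46 and 3.57 in 45566B, and it was 3.60 in 46295, 4.35 in 33373 and 3.86 in 33377. Both libraries of 45555 are highest, as for Ddit3. Atf4, the factor that induces Ddit3, stood at 391 FPKM in knockout and 518 FPKM in wild type of 45555, 106 and 111 FPKM in 47298, and 86.8 and 81.0 FPKM in 45566B. It had a log2 fold change of -0.13 (SE 0.19, limma adjusted p = 0.846).

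Single genes of the response differed within pairs. Vldlr, a lipoprotein receptor, stood at 14.0 FPKM in knockout and 28.8 FPKM in wild type of 45555, 0.385 and 3.26 FPKM in 47298, and 5.26 and 8.65 FPKM in 45566B (log2 fold change -1.08, SE 0.26, limma, unadjusted p = 0.0127, adjusted p = 0.762). Ppp1r15a, the phosphatase subunit that CHOP induces, stood at 37.9 FPKM in knockout and 108 FPKM in wild type of 45555, 9.87 and 13.4 FPKM in 47298, and 5.13 and 6.07 FPKM in 45566B. Both thus had the order of Ddit3 within each pair. Ddit4, with a smaller p than Ppp1r15a, was lower in knockout of 45555 and 47298 but stood at 86.3 FPKM in knockout and 84.0 FPKM in wild type of 45566B. Of the 31 genes, 6 were lower and 5 higher in knockout of all 3 lines, beside 13.3% and 14.3% of all genes. Nupr1, a stress-induced chromatin protein, went the other way in 47298, with 1269 FPKM in knockout and 144 FPKM in wild type. Of 22 tested chaperones and other genes of the endoplasmic reticulum response (23 listed) 17 were higher in knockout and 5 lower, with a median of 0.21 (0.40 without short noncoding RNA genes in the scaling) and none passing. In 47298 their median difference was 0.71, and 7 of them were at 1 or more, beside 8.49% of all genes. The medians were 0.06 in 45555 and -0.26 in 45566B. Ddit3 was lower in knockout of all 3 lines, so the list did not keep 1 direction beside it.

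**Figure D5:**
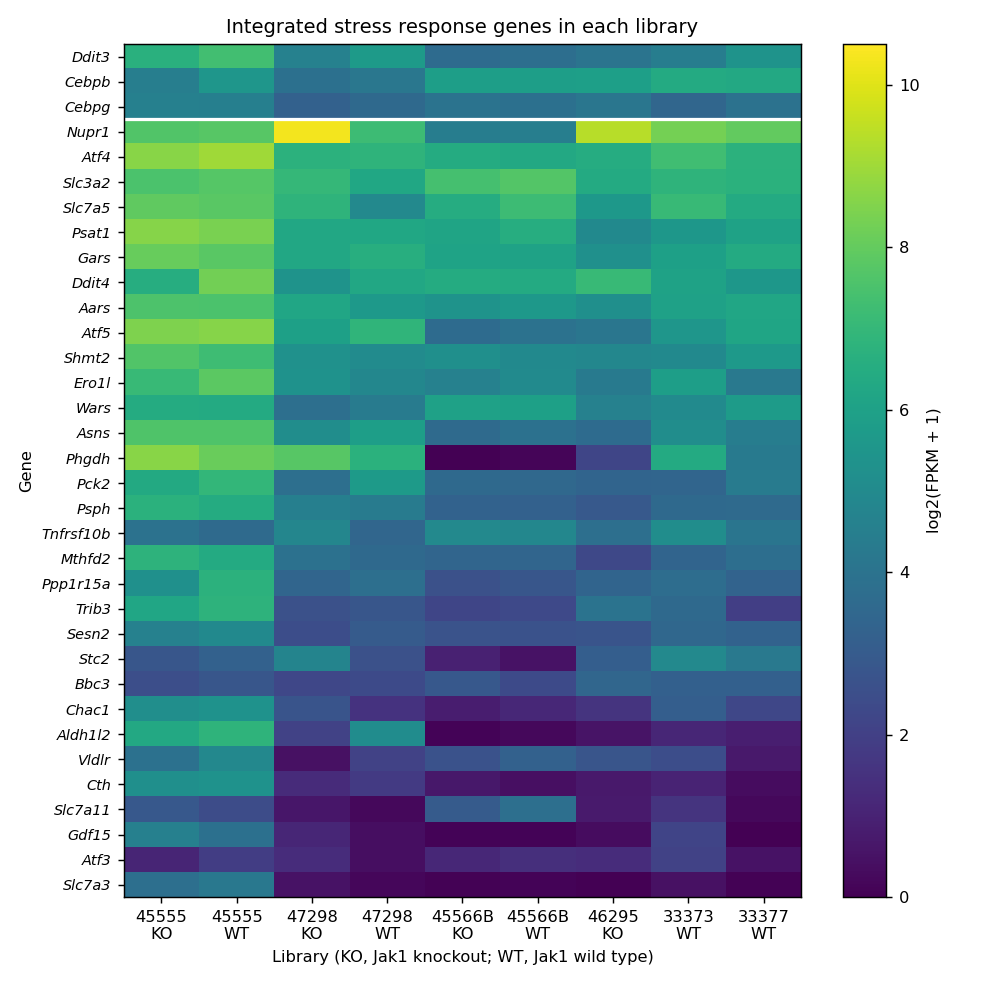
Level on the log2(FPKM + 1) scale by colour of Ddit3, Cebpb and Cebpg, above the white line, and of the 31 genes of the integrated stress response, with 1 column per library and knockout left of wild type in each pair. The list mean is 6.03 in knockout and 6.23 in wild type of 45555, above all other libraries, and Cebpb is instead low in 45555 and 47298.

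For Cebpa genes of fat-cell differentiation, many induced with Pparg, differed in the same line. Of 24 such genes 17 were tested over the pairs, 12 lower in knockout and 5 higher, with a median of -0.30 and none passing or with an unadjusted p under 0.05. Without short noncoding RNA genes in the scaling 9 were lower and 8 higher, with a median of -0.10. In 47298, 8 of them had a difference of -1 or less and 1 of 1 or more, beside 11% and 8.49% of all genes. Scd1 was the 1, with 267 FPKM in knockout and 103 FPKM in wild type, a difference of 1.37. Pnpla2 and Fasn were also higher in knockout there, with differences of 0.89 and 0.60. Of the 17, Adipoq, Plin1 and Cd36 reached the filter only through 47298 wild type, so their direction over the pairs was fixed by that filter. Pparg, the master regulator of fat cells, stood at 2.23 FPKM in knockout and 44.3 FPKM in wild type of 47298, and at 16.8 and 8.63 FPKM in 45555. Fabp4, a fatty acid-binding protein, stood at 15.5 FPKM in knockout and 885 FPKM in wild type of 47298, and at 311 and 331 FPKM in 45555. Adipoq, the hormone of mature fat cells, stood at 0.0437 FPKM in knockout and 12.6 FPKM in wild type of 47298 and at 0.192 FPKM or below in the other 7 libraries. In the 47298 pair Cebpa, Pparg, Fabp4 and Adipoq were thus lower in knockout together, while Scd1 and others of the list went the other way.

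Markers of other cell types differed within the same pairs, and in bulk RNA fewer cells of a type and less RNA per cell cannot be told apart. Of 10 tested fibroblast markers (12 listed) 8 were lower in knockout and 2 higher, with medians of -0.62 in 45555, -3.51 in 47298 and 0.09 in 45566B. Their summed level ranged from 44.0 to 8761 FPKM over the knockout libraries and from 22.2 to 9964 FPKM over the wild-type libraries, and it was 2232 FPKM in knockout and 9964 FPKM in wild type of 47298. Col1a1, a collagen chain, stood at 65.5 FPKM in knockout and 1728 FPKM in wild type of 47298, and at 1675 and 1879 FPKM in 45555. In 47298, 6 of the fibroblast markers were at -1 or less and 1, Dcn, at 1 or more. Dcn stood at 27.3 FPKM in knockout and 12.2 FPKM in wild type there, so the markers did not all fall. The 9 adipocyte markers summed to 56.0 FPKM in knockout and 1347 FPKM in wild type of 47298, 406 and 556 FPKM in 45555, and 1.56 and 2.23 FPKM in 45566B.

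All 6 tested adipocyte markers were lower over the pairs, with a median of -1.15 and 2 of them, Fabp4 and Plin1, lower in all 3 lines. Adipoq, Plin1 and Cd36 reached the filter only through 47298 wild type (12.6, 6.96 and 9.58 FPKM), which fixed their direction over the pairs. Plin1 was near the floor in 45555 and 45566B, at 0.0949 and 0.0147 FPKM in wild type and 0 in knockout. Of the 12 epithelial markers 6 were higher and 6 lower, or 10 and 2 without short noncoding RNA genes in the scaling. Krt18, a keratin of simple epithelia, stood at 250.3 FPKM in knockout and 52.7 FPKM in wild type of 47298. Krt7 and Krt8 were also higher in knockout there, but Krt19 stood at 0.307 FPKM in knockout and 5.97 FPKM in wild type. Of the 12, 7 were under 1 FPKM in 47298 knockout, among them Epcam and Cdh1, and 6 in its wild type. None of these markers passed. The part of these markers in the differences of Cebpa and Cebpd in 47298 was not tested. In 45555, where Cebpd had a difference of -3.02, the summed fibroblast markers stood at 8761 FPKM in knockout and 9687 FPKM in wild type. Vim, vimentin, the most abundant of them, stood at 3218 FPKM in knockout and 2595 FPKM in wild type there. Col3a1, a collagen chain, stood at 241 and 883 FPKM and Pdgfra, a receptor of platelet-derived growth factor, at 41.3 and 143 FPKM, so these markers were lower in 45555 knockout together with Cebpd, and their part was not tested either. Of 12 leukocyte markers 9 were under 1 FPKM in every library, among them Ptprc and Itgam, with Cd3e listed at 0. Their sum ranged from 4.31 to 420 FPKM over the knockout libraries and from 4.85 to 514 FPKM over the wild-type libraries. Most of it was Cd14, a lipopolysaccharide co-receptor also listed with the acute-phase genes, at 389 FPKM in knockout and 504 FPKM in wild type of 45566B, and Cd68, a lysosomal protein of macrophages, stood at 106 FPKM in 46295 knockout. Of 8 endothelial markers 6 were under 1 FPKM in every library, among them Pecam1 and Cdh5.

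Genes that C/EBP proteins control in the gland and in myeloid cells were set beside them last. Of 16 mammary differentiation and milk genes 11 were tested, 6 lower in knockout and 5 higher, with a median of -0.07 that became 0.05 without short noncoding RNA genes in the scaling, and none passed. Csn2, Wap and Lalba, milk protein genes, were under 1 FPKM in every library. The casein genes Csn1s1 and Csn3 were abundant in 45566B, where Csn1s1 stood at 190.5 FPKM in knockout and 907 FPKM in wild type and Csn3 at 1081 and 3623 FPKM, differences of -2.25 and -1.74. Csn1s1 had a log2 fold change of -0.75 over the pairs (SE 0.54, limma adjusted p = 0.762). Both were thus lower in knockout of the pair in which Cebpd was not. Xdh, the oxidase needed for milk fat secretion, stood at 19.1 FPKM in knockout and 97.4 FPKM in wild type of 45555, 51.4 and 134 FPKM in 47298, and 19.3 and 23.9 FPKM in 45566B (log2 fold change -1.32, SE 0.42, limma, unadjusted p = 0.0342, adjusted p = 0.762). It was thus lower in the same pairs as Cebpd. Of 10 myeloid targets of C/EBP 7 were under 1 FPKM in every library, and only Ltf, lactoferrin, also a milk protein, was tested.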

How the data were processed

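Total RNA of 9 cell line libraries was primed with oligo-dT and sequenced after TruSeq library preparation, per the labels' protocols. The deposited values are FPKM per gene symbol, made by the authors on build mm10 with cutadapt, TopHat2 2.1, Cufflinks 2.2 and Cuffnorm, per the submitters' processing notes. The sources used here do not give the annotation, scaling option or strandedness. FPKM hold no counts, so the number of fragments is unknown and no count test was used. Values came from the table of 9 libraries, and the table of 4 of them held identical values. Of the rows, 4 with a repeated name that a spreadsheet had turned into a date were left out.

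Each comparison kept genes whose mean over its libraries reached 1 FPKM. They were tested on log2(FPKM + 1) values by limma 3.58.1 (R 4.3.3), with a variance prior that follows the mean, two-sided, with Benjamini-Hochberg adjustment over all genes at 0.05. The pairs comparison used 6 libraries with the line as a block, and the comparison of all 9 had no block, so the libraries of a line count there as separate. The labels name the line of each library, which gives the pairing, and libraries of a line deviated together (correlations of 0.700 in 45555, 0.399 in 47298 and 0.804 in 45566B over 12063 genes). Depth relative to 45566B wild type was read from the ratio of low values.

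The members, gene lists and tests were chosen with earlier results of these data known. Named genes are the 5 members, Jak1, Stat3, Socs3, Atf4, Epcam, Col1a1 and Fabp4, the 3 tested genes of each list with the smallest p of the pairs comparison, and for each member the 3 genes with the highest r, other than microRNAs, small nucleolar RNAs and genes without a name. Not every gene this rule names is reported, and 1 gene was left out of a list and is not reported here. Osmr, Lifr, Lif, Il6ra, Ctf1, Lbp, Cp, Fkbp5, Cdkn1c, Nupr1, Pparg, Adipoq and Cd36 were picked once their values had been seen. So were Scd1, Pnpla2, Fasn, Dcn, Krt19, Vim, Csn3, Spidr, Tmem189 and genes named as under 1 FPKM. Lists come from textbook knowledge, share some members, and were described by counts and medians. Alternatives were other pseudocounts, no filter, 2 rescalings, a single prior variance, no block and left-out lines or libraries. The list medians under the rescalings were added after seeing the data. Promoter windows come from the RefSeq table of GRCm38.p6, which matched 4 of the 5 members.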

Additional observations from a re-analysis of the deposited data

Results flagged for a closer look

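Cebpa, Cebpd and Cebpg stand out because the 3 pairs did not move the same way. The within-line log2 differences, knockout minus wild type, of Cebpd spanned 4.17, from -3.77 in 47298 to 0.40 in 45566B. Those of Cebpa spanned 3.01, from -2.93 in 47298 to 0.08 in 45555. Those of Cebpg spanned 0.475, from -0.35 in 47298 to 0.13 in 45566B, beside a median absolute difference of all genes of 0.40 in 47298 and 0.13 in 45566B. With 1 library per line and state, these differences between lines were not tested.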

How the results depend on the processing

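No C/EBP gene passed in any setting run. Of the values recomputed under an alternative, 197 were counted as unchanged, 5 as moved and 5 as turned in sign, all 5 fold changes of Cebpg. Within-line differences have no call, and small ones that crossed 0 were not counted as turned. Those of Cebpb are given with that gene, and in 45566B it was also at 0.049 after upper quartile rescaling. Genes called in the pairs comparison were 0 to 6 when a line was left out, the 6 without 47298 all being short noncoding RNA genes. Over all 9 libraries the range was 0 to 1, with 1 each without the knockout library of 45555 (Mir3063), the wild-type library of 45555 (Mir6921) and the knockout library of 45566B (Mir1895), genes named after their values were seen. The sign of Cebpg turned in the pairs comparison, with a log2 fold change of 0.12 when rescaled without short noncoding RNA genes and 0.081 without 47298, in a range of -0.16 to 0.081 over left-out lines. Over all 9 libraries it was -0.019 without 33373 and 33377, with a range of -0.10 to 0.33 over left-out libraries, with -0.01 without 33373. Its difference in 47298 was 0.0074 when rescaled without short noncoding RNA genes. The causes were not tested.

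Without the replicate block the pairs comparison called 0 genes, with 58 at an unadjusted p under 0.05 against 406 with it, and the log2 fold changes were the same, -0.99 for Cebpa, -0.44 for Cebpb, -2.13 for Cebpd, -0.06 for Cebpg and -0.63 for Ddit3, each with an adjusted p of 1.000. Left-out lines and libraries gave Cebpd -3.39 to -1.31 over the pairs and -2.80 to -1.82 over all 9, and Ddit3 -0.87 to -0.39 and -1.23 to -0.09. With 3 pairs and no fragment counts, differences of the size seen in 45566B could not be resolved.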
